A study of Mus musculus with 3 samples.

Results

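The transcripts described here are those that an Agilent mouse array reports with probes annotated by a RefSeq noncoding RNA accession, that is, an accession beginning with NR_. Of the 55681 probes on the array that are not controls, 886 carry such an accession, in 923 of 59305 spots, and they stand for 757 different accessions. Matched by accession without version to RefSeq genes of GRCm38.p6, 813 of the 886 probes belonged to 693 named genes and 73 had no match. RefSeq types 559 of the probes as long noncoding RNA, 224 as transcribed pseudogene, 14 as a locus that also codes for protein and 6 as antisense RNA. The rest of the typed probes report 4 small nuclear RNA genes, 2 small nucleolar RNA genes, 2 ribosomal RNA genes, the RNA of RNase MRP and telomerase RNA. The probe set therefore holds regulatory RNAs, hosts of small RNAs, structural RNAs and many transcripts with no known role.

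RNA came from mouse embryonic stem (ES) cells labelled as male, and each of the 3 groups was a single array. The wildtype array came from unedited cells, and the Pcgf6KO array from cells whose Pcgf6 gene had been edited with Cas9. The array labelled Pcgf6KO+ Pcgf6_flag came from edited cells given Flag-tagged Pcgf6 with a lentivirus. The labels do not say whether an edited line was a single clone. All cells were grown with fibroblasts that mitomycin-C had stopped from dividing, in medium with serum and leukemia inhibitory factor, so all 3 RNA samples could contain fibroblast RNA. With 1 array per group there was no replicate check and no test, and so few arrays give little precision. The wildtype and Pcgf6KO arrays were on slide 1 and the third array was alone on slide 2, so its group and its slide cannot be told apart.

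A level is log2 of the processed signal minus the 75th percentile of the same array, so 0 is the 75th percentile. A difference between arrays is the difference of these levels for 1 probe, and levels of different probes are not compared. A probe was counted as measured where the scanner software called it well above background. A difference of 1 in log2, that is 2-fold, was used as a fixed mark. The spread of repeated spots within each array gave an SD of 0.13 for a difference of single spots between a pair of arrays. This value holds no variation from array to array. The scanner's own error model gave a median SD of 0.21 for the difference of a noncoding probe (range 0.06 to 0.44). Both SDs describe the array and not the cells.

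Pcgf6 itself was at 1.87 on the wildtype array, 0.84 on the Pcgf6KO array and 0.42 on the third array. Editing went with a level lower by 1.03, and Pcgf6 was not higher on the third array, so the third array is named here by its label, as the Flag-labelled array. Where the probe lies relative to the edit was not given in the sources used here. None of 9 ES cell markers, Pou5f1, Nanog and Sox2 among them, differed 2-fold in any comparison. Of 14 fibroblast markers 13 were measured, and the log2 of their summed level was 5.67 on the wildtype array, 4.36 on Pcgf6KO and 3.77 on the Flag-labelled array. Among the 11 fibroblast markers measured on both of the first arrays 8 reached 2-fold lower on Pcgf6KO, with a median difference of -2.0, and Postn and Prrx1 were above background on the wildtype array only. Lum was the marker not measured on any array. In bulk RNA, fewer cells of a type and less RNA per cell cannot be told apart.

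Pcgf6 is the Polycomb group RING finger protein that defines the variant Polycomb repressive complex PRC1.6. The complex is known to be brought to DNA by Mga with Max, which bind an E-box, and by E2f6, and in ES cells it keeps many germline genes silent. Long noncoding RNAs are transcribed and processed much like messenger RNAs, and some, such as Xist and Kcnq1ot1, act by drawing repressive complexes to the chromatin from which they are made. Other noncoding genes matter mainly as hosts: their introns or exons hold small nucleolar RNAs or microRNAs.

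RefSeq places microRNA genes inside 13 of the noncoding host genes, and the mature microRNAs shown here are the products of the host transcripts described below. Capitals mark the seed, bases 2 to 8, through which a microRNA pairs with its targets. All are from RefSeq on GRCm38.p6. D7Ertd143e is the host of a cluster on chromosome 7 that is known to be the main microRNA cluster of mouse ES cells, and its arms fall into groups by seed. The seed AAGUGCU is shared by 2 of them, and miR-291b-3p differs from it in the last base:
mmu-miR-294-3p: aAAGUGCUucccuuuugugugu
mmu-miR-295-3p: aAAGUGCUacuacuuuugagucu
mmu-miR-291b-3p: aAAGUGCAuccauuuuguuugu
The opposite arms of the cluster include a pair with the seed CUCAAAC:
mmu-miR-292a-5p: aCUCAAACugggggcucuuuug
mmu-miR-293-5p: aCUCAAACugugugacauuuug
The next sequences belong, in this order, to Mir22hg and Mir9-3hg, which were highest on Pcgf6KO within 2-fold, to 6430411K18Rik and Mir100hg, which were lower there, and to Ftx, of whose probes 1 was lower on the Flag-labelled array:
mmu-miR-22-3p: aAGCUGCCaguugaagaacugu
mmu-miR-9-5p: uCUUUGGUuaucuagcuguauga
mmu-miR-433-3p: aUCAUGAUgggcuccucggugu
mmu-miR-100-5p: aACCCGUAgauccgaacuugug
mmu-miR-125b-5p: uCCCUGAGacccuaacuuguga
mmu-miR-374b-5p: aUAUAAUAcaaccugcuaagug
The array measured the host RNA and not these microRNAs.

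For long noncoding RNAs whose Pcgf6KO level stood apart, promoter windows of RefSeq on GRCm38.p6 are shown, 250 bases before to 50 after the start. The first 4 were picked because they hold a motif, and 1700001K23Rik is shown as a transcript with a larger difference than any of them and no motif. Capitals mark the E-box CACGTG and the E2F motif TCCCGC or its reverse complement GCGGGA, searched on both strands. Platr8 was lower and the others were higher on Pcgf6KO than on the wildtype array.
9530059O14Rik, chr9:122572251-122572550, plus strand: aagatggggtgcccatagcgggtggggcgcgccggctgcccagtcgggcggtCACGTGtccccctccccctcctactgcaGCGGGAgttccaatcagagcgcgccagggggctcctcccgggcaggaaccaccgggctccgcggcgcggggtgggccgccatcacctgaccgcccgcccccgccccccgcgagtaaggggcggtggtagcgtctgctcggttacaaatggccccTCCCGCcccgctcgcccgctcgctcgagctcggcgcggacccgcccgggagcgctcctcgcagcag
4930520O04Rik, chr9:114368074-114368373, plus strand: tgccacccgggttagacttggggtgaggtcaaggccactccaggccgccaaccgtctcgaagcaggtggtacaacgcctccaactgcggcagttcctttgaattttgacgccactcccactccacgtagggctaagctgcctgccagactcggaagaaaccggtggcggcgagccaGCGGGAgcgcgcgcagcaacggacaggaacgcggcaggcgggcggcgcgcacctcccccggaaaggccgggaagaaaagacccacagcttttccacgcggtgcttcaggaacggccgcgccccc
1700020N01Rik, chr10:21592895-21593194, plus strand: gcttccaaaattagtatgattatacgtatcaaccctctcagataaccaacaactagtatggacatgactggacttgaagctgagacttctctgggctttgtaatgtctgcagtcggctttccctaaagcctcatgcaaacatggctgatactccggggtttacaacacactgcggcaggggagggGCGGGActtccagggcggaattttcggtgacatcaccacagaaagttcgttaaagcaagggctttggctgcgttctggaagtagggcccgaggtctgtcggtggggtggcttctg
Platr8, chr2:109913270-109913569, minus strand: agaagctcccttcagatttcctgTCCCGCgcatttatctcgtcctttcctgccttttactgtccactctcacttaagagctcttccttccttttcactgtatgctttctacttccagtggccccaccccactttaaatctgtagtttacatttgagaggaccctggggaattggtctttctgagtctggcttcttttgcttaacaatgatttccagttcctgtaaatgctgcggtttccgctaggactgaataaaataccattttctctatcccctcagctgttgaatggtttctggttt
1700001K23Rik, chr19:53255156-53255455, minus strand: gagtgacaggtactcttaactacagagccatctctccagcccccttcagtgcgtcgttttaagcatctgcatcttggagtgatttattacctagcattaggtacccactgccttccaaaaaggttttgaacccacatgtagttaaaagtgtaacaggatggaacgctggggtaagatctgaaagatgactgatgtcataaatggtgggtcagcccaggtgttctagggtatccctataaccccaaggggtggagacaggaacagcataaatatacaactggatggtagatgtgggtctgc
The window of 9530059O14Rik holds 1 E-box and 2 E2F motifs, and each of the next 3 holds 1 E2F motif and no E-box. The windows of Gm1141, 1600025M17Rik and Platr26 and a second window of 4930520O04Rik hold neither. Rnf227, which had the largest difference between Pcgf6KO and wildtype among the brighter members, is not in the promoter table.

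Of the 886 probes, 508 were measured on the wildtype array, 525 on Pcgf6KO and 457 on the Flag-labelled array. That is 57.3%, 59.3% and 51.6% of them, against 65.3%, 66.0% and 60.7% of all probes. In all, 557 were measured on at least 1 array, 434 on all 3 arrays and 329 on none. The arrays differed in which probes they alone measured: 16 were measured on the wildtype array only, 30 on Pcgf6KO only and 12 on the Flag-labelled array only. Over all 55681 probes the same order was seen, with 1080, 1352 and 824. The third array had a higher lowest signal well above background, at a level of -5.49, against -6.22 and -6.33 on the others.

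Edited and unedited cells were compared by setting the Pcgf6KO array against the wildtype array. Most noncoding transcripts were at a like level on both. Of 488 probes seen above background on both, 21 reached 2-fold higher on Pcgf6KO (4.30%) and 19 reached 2-fold lower (3.89%). The background over all 35059 probes measured on both arrays was 4.52% higher and 3.42% lower, so the noncoding probes were called about as often as any other probe. Their median difference was -0.10, against -0.04 for all probes. With another background correction, normexp, 8 were higher and 14 lower, where all probes gave 968 higher and 791 lower. Among probes whose mean level reached the median of all measured probes 2 were higher and 10 lower. All probes of that brightness gave 339 higher and 346 lower. Where only 1 of the arrays was above background, the difference is a bound: the brighter signal over the faintest signal that the dim array calls, or over the probe's own signal there if that is higher. Of 37 such probes brighter on Pcgf6KO 7 were bounded at 2-fold or more (18.9%, where all probes gave 22.6%), and of 20 brighter on wildtype 7 (35%, where all probes gave 30.3%).

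**Figure D1:**
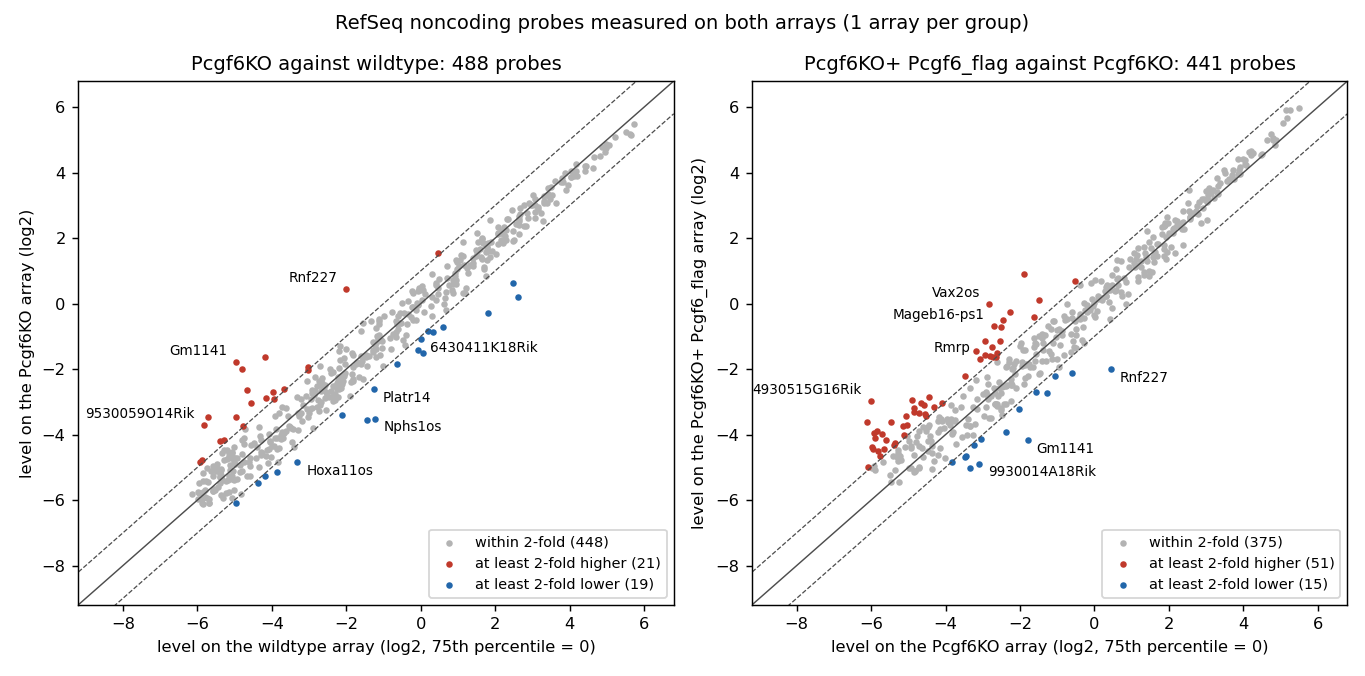
Levels of RefSeq noncoding probes on pairs of arrays, in log2 relative to the 75th percentile of each array, with 1 point per probe, the solid line at equality and dashed lines at 2-fold. On the left 21 of 488 probes lie above and 19 below the dashed lines, and on the right 51 of 441 lie above and 15 below.

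Among the brighter members, those whose mean level over the arrays was at least -2.4, their median, Rnf227 stood out. RefSeq types this chromosome 11 gene as long noncoding RNA under NR_027827. It was at -2.0 on the wildtype array, 0.44 on Pcgf6KO and -2.0 on the Flag-labelled array. The difference was 2.44 for Pcgf6KO against wildtype and -2.44 for the Flag-labelled array against Pcgf6KO. The wildtype array and the Flag-labelled array were thus at the same level. Its coding neighbour Kcnab3, a potassium channel beta subunit, was at -3.50, -1.89 and -2.98, higher by 1.60 on Pcgf6KO. Under each alternative processing that gives a value, the Rnf227 difference lay between 2.33 and 2.48.

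Several dim transcripts were also higher on Pcgf6KO. The largest difference of any measured member was that of the X-linked predicted gene Gm1141, at -4.95, -1.80 and -4.17 on the wildtype, Pcgf6KO and Flag-labelled arrays, a difference of 3.16. It was singled out after its values were seen. 1700001K23Rik was at -5.71, -3.47 and -4.67, higher by 2.24 on Pcgf6KO, and partly lower again on the third array. 9530059O14Rik was at -5.83 and -3.72, higher by 2.11, and was not well above background on the Flag-labelled array. With normexp its difference was 0.96, below the 2-fold mark. 4930520O04Rik was at -4.56, -3.05 and -4.14, higher by 1.51. 1700020N01Rik was at -3.04, -2.03 and -3.23, higher by 1.0, just inside the mark.

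Both probes of Zscan4a were higher. Zscan4 genes are known as markers of the 2-cell embryo and of a small, changing fraction of ES cells, and RefSeq types Zscan4a as a transcribed pseudogene. Its probes were at -4.19 and -4.81 on the wildtype array and at -1.63 and -2.01 on Pcgf6KO, higher by 2.56 and 2.79, and neither was well above background on the Flag-labelled array. The bounds there were at least 14.5-fold and at least 11.1-fold lower than Pcgf6KO. The genes of this cluster are near-identical copies, so these probes may report other copies as well. The same holds for H2-K2, a pseudogene of the class I histocompatibility genes, whose probes were higher by 1.07 and 0.66.

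Transcripts measured on Pcgf6KO and not on the wildtype array were headed by 1700018B24Rik, at -3.62 on Pcgf6KO and at least 6.04-fold higher than on the wildtype array. A second probe of it was not above background on any array. C86187 was at -4.18 and at least 4.08-fold higher. Dlx4os, which overlaps the homeobox gene Dlx4, was at -4.93 on Pcgf6KO and -4.40 on the Flag-labelled array, and was not above background on the wildtype array, a bound of 2.43-fold. Its partner Dlx4 was at -4.43, -2.45 and -4.08, and the adjoining Dlx3 at -4.43, -2.32 and -3.49, so both coding genes were higher on Pcgf6KO by 1.99 and 2.11. At Rnf227 and Dlx4os the noncoding transcript and a coding gene beside it were higher together. These neighbours were singled out after their values were seen.

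On the other side, the largest lower difference was that of NR_002860, a transcript with no match in the gene table and so named by accession only. Its 3 probes were at 2.62, 2.47 and 1.81 on the wildtype array and at 0.20, 0.63 and -0.28 on Pcgf6KO, lower by 2.42, 1.84 and 2.09. They stayed low on the Flag-labelled array, at 0.18, 0.77 and -0.44. All 3 probes thus agreed, and the wildtype array alone was high.

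Nphs1os, antisense to the nephrin gene Nphs1, was at -1.24, -3.52 and -2.83, lower by 2.28 on Pcgf6KO. Nphs1 was at 0.34, -1.62 and -0.60, lower by 1.95, so the sense and antisense transcripts were lower together. Hmga2-ps1, a pseudogene of the chromatin protein gene Hmga2, was at -1.45, -3.56 and -4.08, lower by 2.11. Hoxa11os was at -3.31, -4.84 and -5.14, lower by 1.53, and its coding partner Hoxa11 was above background on the wildtype array only. Speer5-ps1, a pseudogene of a testis-expressed family, was lower by 1.34, 1.33 and 1.23 on its 3 probes. 6430411K18Rik was at 0.02, -1.08 and -0.54, lower by 1.1.

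The largest bounds were also on this side. U90926 was at -1.80 on the wildtype array and was not above background on either of the others, so that it was at least 23.2-fold lower on Pcgf6KO. Peg13, an imprinted transcript from within the Trappc9 gene, was at -2.86 on the wildtype array and at least 11.1-fold lower on Pcgf6KO. Mir100hg was at -4.43 on the wildtype array and at least 3.72-fold lower, 4930579K19Rik at -4.42 and at least 3.25-fold lower, and Platr4 at -4.51 and at least 3.04-fold lower. None of these 5 was above background on the Flag-labelled array. The summed fibroblast markers were also highest on the wildtype array, at 5.67 against 4.36 and 3.77, with Postn and Prrx1 above background there only, and their part in these differences was not tested.

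**Figure D2:**
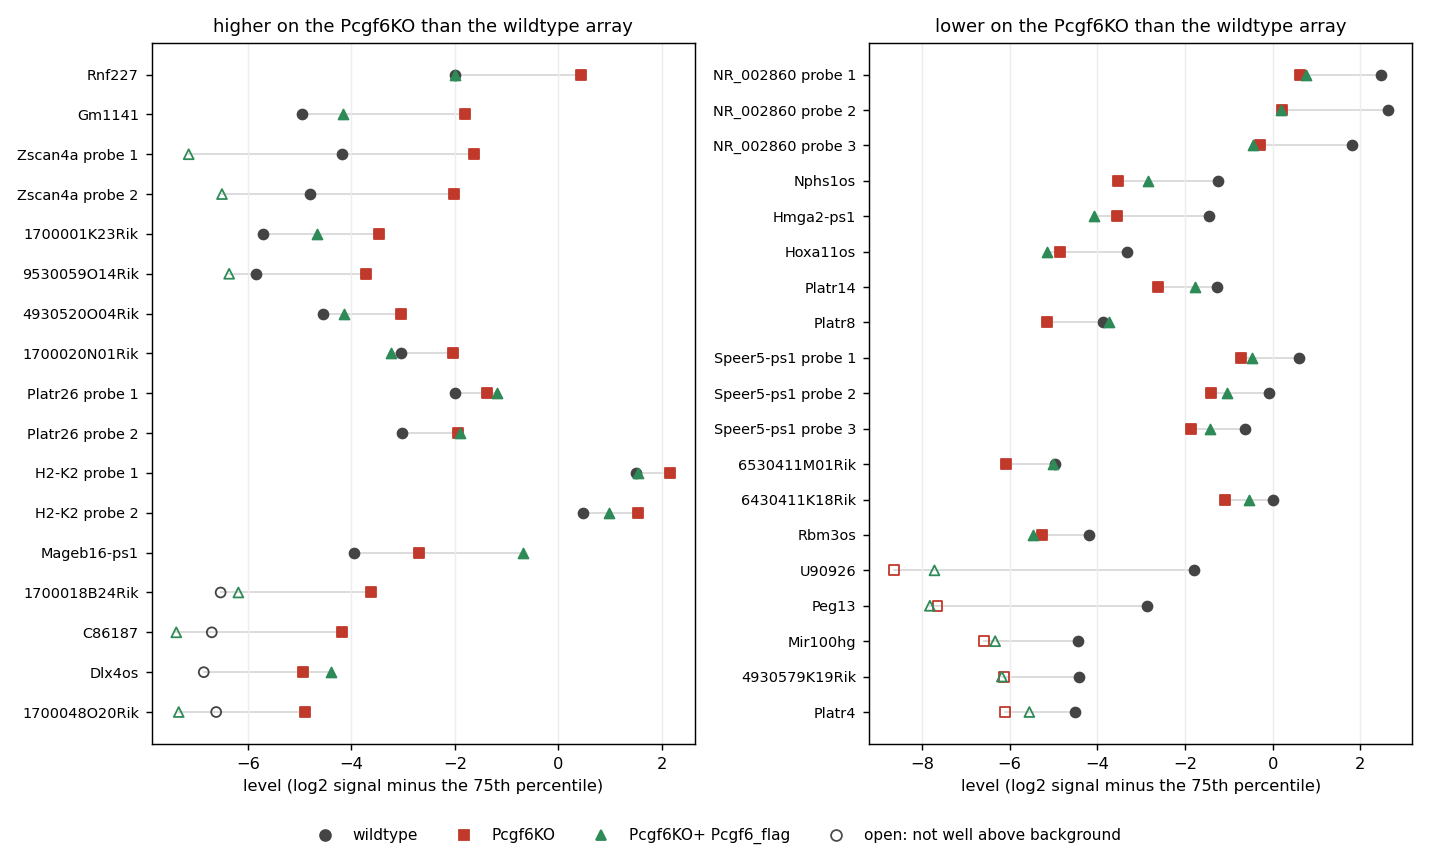
Levels on each of the 3 arrays, in log2 relative to the 75th percentile, for noncoding transcripts higher (left) or lower (right) on Pcgf6KO than on the wildtype array, with 1 symbol per array and open symbols where a probe was not well above background. Rnf227 is at 0.44 on Pcgf6KO and at -2.0 on both other arrays, whereas the 3 probes of NR_002860 are high on the wildtype array only.

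The Flag-labelled array allowed each transcript to be placed on 3 arrays. Of the 434 probes measured on all of them, 6 were at least 2-fold higher on Pcgf6KO than on both others (1.38%), where all probes gave 2.22%. They were Gm1141, Rnf227, 1700001K23Rik, 4930520O04Rik, 1700020N01Rik and Gm3002. At least 2-fold lower on Pcgf6KO than on both others were 3 probes (0.691%, against 1.08% of all probes): 6530411M01Rik, Platr8 and Smok4a. With normexp these counts were 2 and 0, and with scaling to the median signal the second was 5. Among 1.5-fold differences the counts were 14 and 15. The wildtype array stood 2-fold above both others at 11 probes (2.53%, against 0.990% of all probes). All 3 probes of NR_002860, with Hmga2-ps1, Hoxa11os, Nphs1os, Rbm3os and 1 of the Speer5-ps1 probes, were among the 11. Fewer transcripts than probes thus stand behind this share. It stood below both at 6 probes (1.38%, against 0.740% of all probes). The Flag-labelled array stood above both others at 32 probes (7.37%, against 6.06%) and below both at 6 (1.38%, against 2.13%).

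Milder members of the same pattern were transcripts whose Pcgf6KO level lay furthest from both other arrays without reaching 2-fold against both. Appbp2os was at -1.33, -0.54 and -1.32, Gpr137b-ps at -1.61, -0.83 and -1.57, and Sycp1-ps1, a pseudogene of the meiotic synaptonemal complex gene Sycp1, at -1.12, -0.48 and -1.36. Each was highest on Pcgf6KO by between 0.64 and 0.88. On the low side, Platr14 was at -1.26, -2.62 and -1.78, and Arhgap33os at -3.85, -4.84 and -3.32. Mirt1 was at -4.11, -4.86 and -3.18, so the Flag-labelled array was its highest.

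Imprinted noncoding RNAs are expressed from 1 parental allele and several keep neighbouring genes silent. Of 15 probes for 11 such genes 11 were measured on both the Pcgf6KO and wildtype arrays. None of the 11 differed 2-fold, where all probes gave 4.52% higher and 3.42% lower. The median difference was -0.21, with 3 above and 8 below 0. Meg3, from the Dlk1 cluster, was at 3.06, 2.81 and 3.11 on its brightest probe, and its other probes differed by -0.59 and -0.21 on Pcgf6KO. Mirg, which extends over the microRNAs of the same cluster, was at 2.20, 1.86 and 1.68. The coding gene Dlk1 was at 0.66, 0.98 and 0.23. Another noncoding gene of this region, 6430411K18Rik, is not in the imprinted list and so not in its counts. Like Meg3, it overlaps the coding gene Rtl1 and has Dlk1 and Dio3 as neighbours. It was past 2-fold lower on Pcgf6KO, as given above, so the absence of 2-fold differences holds for the listed probes only. Kcnq1ot1, which silences genes near Kcnq1, was at 1.28, 0.93 and 1.12 on 1 probe and at -0.83, -1.04 and -1.01 on the other. Among its cluster genes, Cdkn1c was at 2.63, 2.70 and 1.63, and Phlda2 at 2.71, 2.65 and 2.67. Cdkn1c was thus lower by 1.07 on the Flag-labelled array than on Pcgf6KO, whereas the probes of Meg3, Mirg and Kcnq1ot1 lay within 2-fold. The bound in the list is that of Peg13, at least 11.1-fold lower on Pcgf6KO as given above.

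Airn, the antisense RNA known to silence Igf2r, was at -1.06, -1.10 and -0.52 on its brighter probe. Its dim probe was at -5.02 and -4.39 and not above background on the third array, so the probes disagreed there. Igf2r was at 1.57, 2.01 and 1.59. Igf2os was at -0.33, -0.32 and -1.12, and Igf2 itself was at -2.66, -2.88 and -5.01. Gnasas1, antisense at the Gnas locus, was at -2.65, -2.42 and -3.06, with Gnas at 4.13, 4.05 and 3.79. Peg3os was at 2.50, 1.93 and 1.38, lower by 1.12 on the Flag-labelled array than on wildtype, and its partner Peg3 was at 2.40, 1.97 and 1.92. Dio3os was above background on Pcgf6KO only, at -6.02, next to the lowest signal the array calls.

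**Figure D3:**
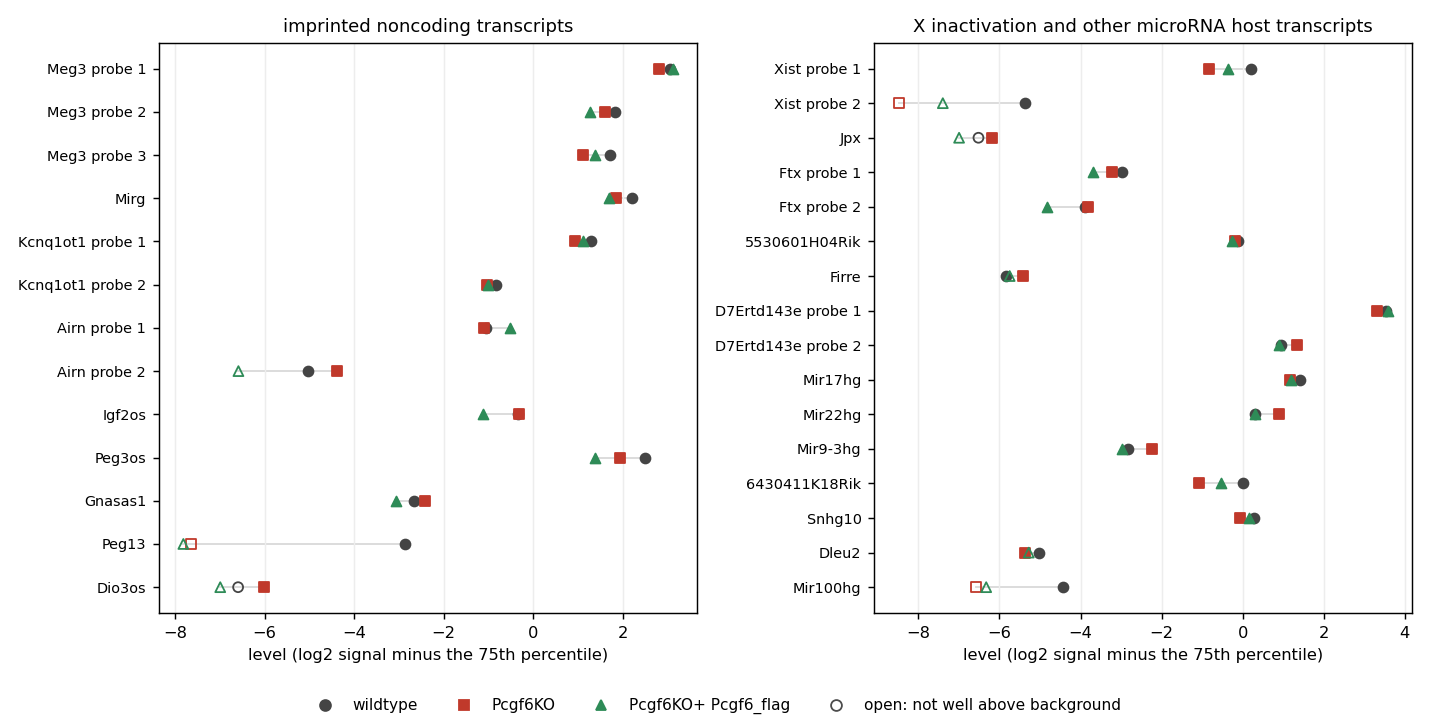
Levels on each of the 3 arrays, in log2 relative to the 75th percentile, for imprinted noncoding transcripts (left) and for transcripts of the X inactivation list and other microRNA hosts (right), with 1 symbol per array and open symbols where a probe was not well above background. The symbols of most transcripts lie within 1 unit of each other, whereas Peg13, Mir100hg and the dimmer Xist probe are above background on the wildtype array only.

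In the X inactivation list 7 probes report 5 genes, and 5 probes were measured on both first arrays. Xist, the RNA that coats the inactive X chromosome of female cells, was at 0.20, -0.83 and -0.37 on its NR_001570 probe, lower by 1.02 on Pcgf6KO. That difference lay between -1.06 and -0.98 under the alternatives, on both sides of the 2-fold mark. Its NR_001463 probe was above background on the wildtype array only, at -5.36. The cells are labelled male, and the sex of the fibroblasts was not given in the sources used here. Xist was highest on the array with the highest fibroblast markers, but the other arrays were not in the same order. From Pcgf6KO to the Flag-labelled array the NR_001570 probe was higher by 0.46, whereas the summed markers went from 4.36 to 3.77. The part of those cells was not tested. Ftx, a noncoding gene beside Xist that hosts microRNAs, was at -2.98, -3.22 and -3.69 on 1 probe and at -3.90, -3.82 and -4.83 on the other. The second was lower by 1.01 on the Flag-labelled array than on Pcgf6KO, the only microRNA host probe past 2-fold in that comparison. Jpx, an activator of Xist, was above background on Pcgf6KO only, at -6.17. Firre was at -5.85 and -5.43 on the first arrays, and 5530601H04Rik at -0.12, -0.19 and -0.27.

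Host genes of small nucleolar RNAs and microRNAs lay at like levels on the first arrays. Of 29 probes for 22 listed hosts 23 were measured on both. None differed 2-fold, where all probes gave 4.52% higher and 3.42% lower, shares at which few of 23 probes would be called. The median difference was -0.21, with 18 of the 23 below 0. Snhg6 was at 4.16, 4.05 and 4.28, Snhg3 at 3.41, 3.06 and 3.46, and Snhg1 at 2.87, 2.60 and 2.78. Snhg7 had the lowest difference of the list, at 1.69, 1.06 and 1.53. Mir17hg, host of an oncogenic microRNA cluster, was at 1.42, 1.16 and 1.19.

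The D7Ertd143e host, whose microRNA arms with the AAGUGCU seed are printed above, was at 3.53, 3.31 and 3.58 on its brighter probe and at 0.95, 1.34 and 0.89 on the other. Its probes differed by -0.22 and 0.39 between the first arrays, in opposite directions and well within 2-fold. Mir22hg was at 0.31, 0.90 and 0.30, and Mir9-3hg at -2.84, -2.25 and -2.99. Each was higher by 0.59 on Pcgf6KO, below the 2-fold mark, and near the wildtype level on the third array. Over all 13 hosts found through the positions of RefSeq microRNAs, 14 probes were measured on both arrays. None was 2-fold higher (all probes gave 4.52%), and 1 was 2-fold lower (all probes gave 3.42%). That probe was 6430411K18Rik, host of miR-433. Mir100hg, host of miR-100 and miR-125b, was the host with a bound, above background on the wildtype array only. The hosts Dnm3os and F630028O10Rik were not above background on any array.

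Transcripts named for their tie to pluripotency were few and did not move together. Of 7 probes for 6 genes 4 were measured on both first arrays, 1 was higher (25%, where all probes gave 4.52%) and 2 were lower (50%, where all probes gave 3.42%). Platr14 was lower by 1.35, as given above. Platr8 was at -3.86, -5.16 and -3.73, lower by 1.30 on Pcgf6KO and higher by 1.43 on the third array. With normexp its first difference was -0.85. Platr26 was higher by 1.09 and 0.63 on its probes and stayed so on the third array, where it was higher than wildtype by 1.12 and 0.81. Platr4 has a bound in the lower direction. ES cell marker genes were within 2-fold on the same arrays.

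Nuclear and structural RNAs were all measured on all 3 arrays, 13 probes for 9 genes. None differed 2-fold between Pcgf6KO and wildtype, where all probes gave 4.52% higher and 3.42% lower. The median difference was -0.09, between -0.12 and 0.03 under the alternatives. Malat1, an abundant RNA of nuclear speckles, was at 2.09, 2.35 and 2.29. Neat1, the scaffold of paraspeckles, was at 2.15, 2.23 and 2.39. Rn28s1, ribosomal RNA of the large subunit, was at 3.80, 3.85 and 3.94. Terc, the template RNA of telomerase, was at -5.40, -5.49 and -5.23. Crnde had the lowest difference, at -0.79, -1.40 and -0.92.

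Small nuclear and nucleolar RNAs, with 6 probes, had no 2-fold difference between Pcgf6KO and wildtype and a median of -0.19. All probes gave 4.52% higher and 3.42% lower there. On the Flag-labelled array 1 of the 5 measured on it and on Pcgf6KO was 2-fold higher (20%, where all probes gave 9.71%). Rnu12, the U12 RNA of the minor spliceosome, was at -2.12, -2.46 and -0.51, higher by 1.96 than on Pcgf6KO. Rmrp, the RNA of RNase MRP and a member of the structural list, was at -2.71, -3.09 and -1.69, higher by 1.40. Rnu3b1, a U3 RNA, was at -0.11, 0.02 and 0.71, and Rnu1b6, a U1 RNA, at 1.32, 1.18 and 1.69, both within 2-fold. Rnu2-10, a U2 RNA, was at 1.24, 1.09 and 1.11. Snora74a, a small nucleolar RNA, differed by -0.0009 between the Flag-labelled array and Pcgf6KO. In the structural list, which also holds Rnu12, 2 of 13 probes were 2-fold higher there (15.4%, where all probes gave 9.71%). The median difference of that list was 0.09, with 8 probes above and 5 below 0.

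Some well-known long RNAs are reported by several probes. Tug1, a long noncoding RNA present in most tissues, was at -1.0, -0.38 and -0.46 on 1 probe, higher by 0.62 on Pcgf6KO, and at 0.65, 0.17 and 0.70 on another, lower there by 0.48. Norad, which binds Pumilio proteins, was at 2.09, 2.16 and 2.55 on its brightest probe and at 1.91, 1.61 and 1.47 on the next. Pvt1, the noncoding neighbour of Myc, was at 0.09, -0.26 and -0.20. No probe of these 3 genes passed 2-fold, and for Tug1 no direction can be given.

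Developmental noncoding RNAs were mostly not detected: 13 of 20 probes were not above background on any array. Of the 3 measured on both first arrays, Hoxa11os was lower (33.3%, where all probes gave 3.42%) and none was higher. Vax2os, antisense to the eye development gene Vax2, was at -2.35, -2.82 and -0.01, higher on the Flag-labelled array than on Pcgf6KO by 2.82. Vax2 was higher there by 0.42 only.

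Antisense transcripts were compared with the coding gene they are named for. Of 59 antisense probes 27 were measured on both first arrays, 0 were 2-fold higher and 3 were 2-fold lower (11.1%, where all probes gave 3.42%), with a median of -0.16. The 3 were Nphs1os, Hoxa11os and Rbm3os. Rbm3os was at -4.19, -5.26 and -5.46, lower by 1.07 on Pcgf6KO, with its partner Rbm3, a cold-shock RNA-binding protein gene, differing by -0.19. In 26 pairs both partners were measured, and in 14 both had the same sign. Across these pairs, which share arrays and scaling, Pearson's r was 0.66 and Spearman's rho 0.22. Nphs1os with Nphs1 was the only pair in which both passed 2-fold, and it lies far from the rest. Between Pcgf6KO and the Flag-labelled array, 17 of 23 pairs had the same sign, 3 antisense transcripts and 3 partners passed 2-fold, and no pair passed on both sides. Whether a probe of an antisense gene also reads its partner was not tested.

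**Figure D4:**
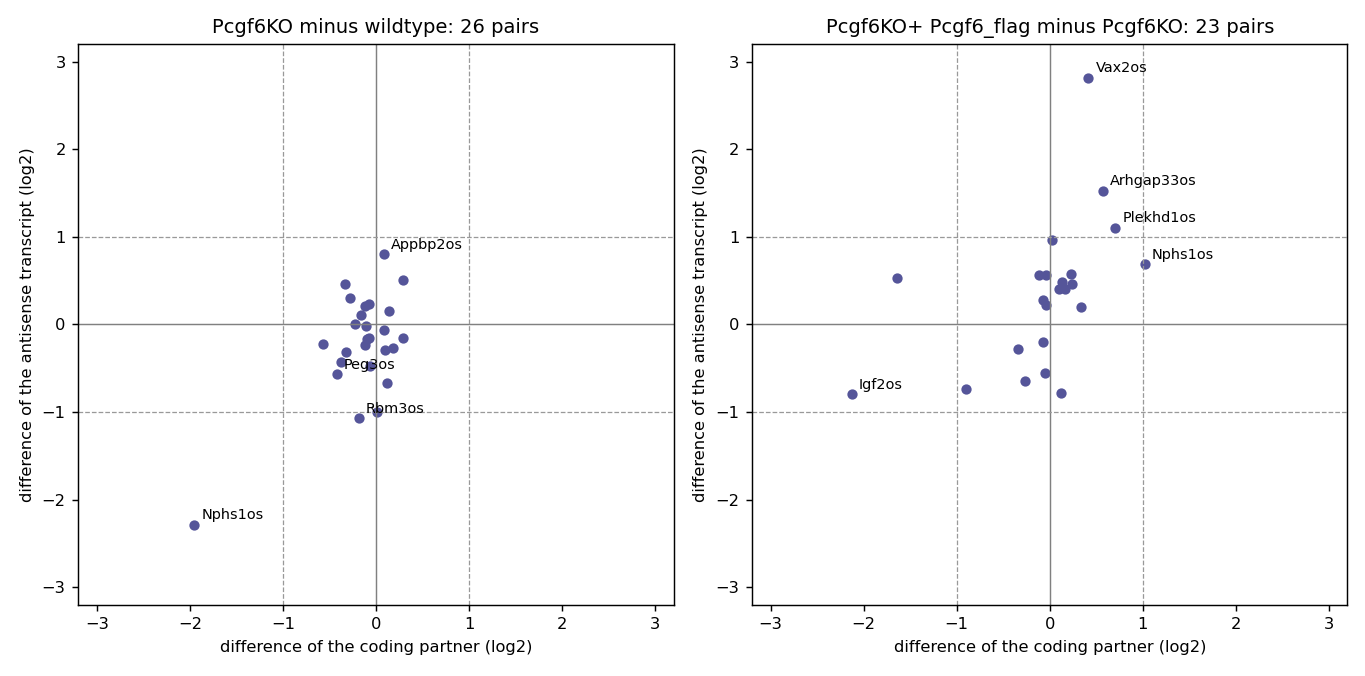
Difference of each antisense transcript (vertical) against the difference of the coding gene it is named for (horizontal), in log2, with 1 point per pair and dashed lines at 2-fold, for Pcgf6KO minus wildtype (26 pairs) and for the Flag-labelled array minus Pcgf6KO (23 pairs). Nphs1os at -2.28 with Nphs1 at -1.95 is the pair past 2-fold on both axes on the left, and Vax2os at 2.82 stands above its partner at 0.42 on the right.

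Many noncoding genes carry only the name of a RIKEN clone, and clones from testis libraries are marked by the number their name starts with. Of 122 probes for 104 such testis clones, 48 were measured on the wildtype array, 58 on Pcgf6KO and 42 on the Flag-labelled array. On Pcgf6KO alone 10 were measured, against 3 on each of the other arrays alone. Of the 45 measured on both first arrays 3 were 2-fold higher (6.67%, where all probes gave 4.52%): 1700001K23Rik, 4930520O04Rik and 1700020N01Rik. Of the same 45, 0 were 2-fold lower, where all probes gave 3.42%. Bounds past 2-fold were had by 3 more in the higher and 2 in the lower direction. Over all probes measured on 1 of these arrays, 22.6% of the higher and 30.3% of the lower had such a bound. The median difference of the 45 was -0.01, between -0.13 and 0.03 under the alternatives, and 22 of the 45 lay above 0. Clones from other libraries, with 185 probes, had 103 measured on both, 2 higher and 2 lower. That is 1.94% each way, where all probes gave 4.52% higher and 3.42% lower. Among all 55681 probes 1352 were measured on Pcgf6KO only, 1080 on the wildtype array only and 824 on the Flag-labelled array only.

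**Figure D5:**
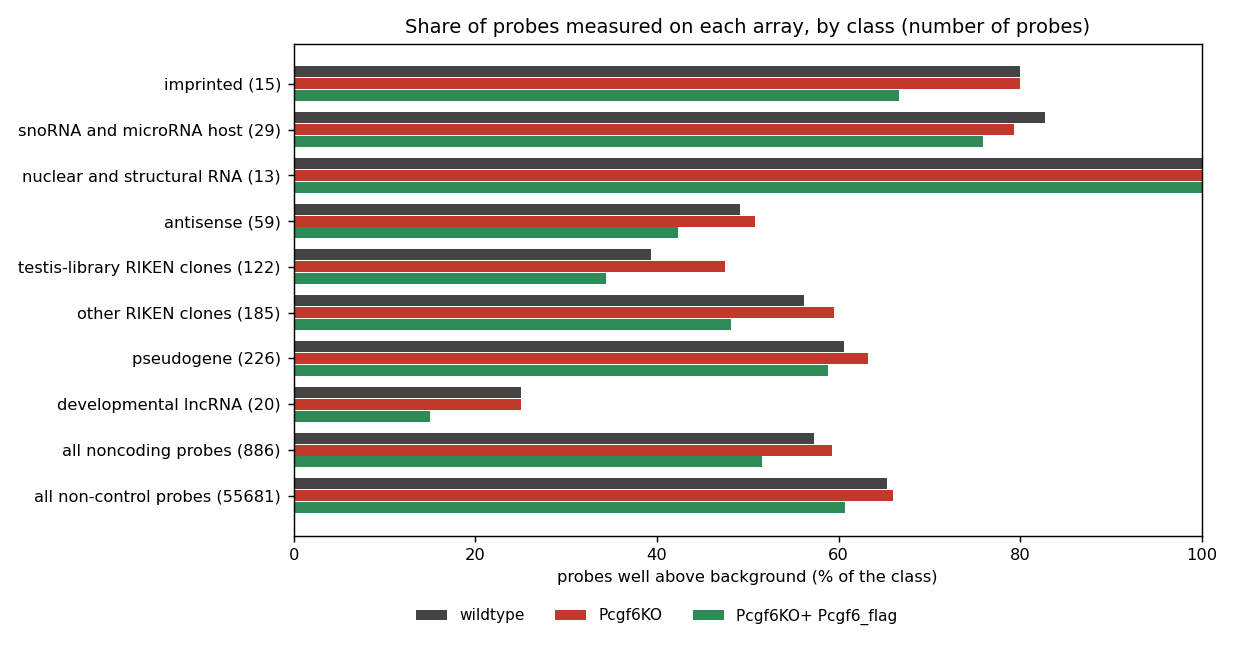
Share of the probes of each class called well above background on each array, in percent, with 1 bar per array and the number of probes of the class in parentheses. Testis clones were measured least often among the larger classes, 39.3% on wildtype, 47.5% on Pcgf6KO and 34.4% on the Flag-labelled array.

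Pseudogenes form the other large class, taken as the transcribed pseudogenes of RefSeq and any gene whose symbol ends in -ps, with or without a number. Of 226 probes 134 were measured on both first arrays, with 7 higher (5.22%), 6 lower (4.48%) and a median of 0.05, near the shares of all probes. That median lay between -0.05 and 0.10 under the alternatives, on both sides of 0. Zscan4a, Mageb16-ps1 and H2-K2 were among the higher and Hmga2-ps1, Speer5-ps1 and Smok4a among the lower. Mageb16-ps1, an X-linked pseudogene of the MAGE family of testis and tumour antigens, was at -3.96, -2.70 and -0.69. It was higher by 1.26 on Pcgf6KO than on wildtype and by a further 2.0 on the Flag-labelled array. Smok4a, of a sperm motility kinase family, was at -4.38, -5.47 and -3.63. Pseudogenes resemble their parent genes, so these probes may also read the parents. On the X chromosome 27 noncoding probes were measured on both arrays, with 4 higher (14.8%, where all probes gave 4.52%), Gm1141, Mageb16-ps1, 1600025M17Rik and Gm5126, and 2 lower (7.41%, where all probes gave 3.42%), Rbm3os and Xist. These 6 were listed after their values were seen.

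The RefSeq gene order was used to ask whether coding genes beside a differing noncoding gene differed too. Of 15 noncoding genes at least 2-fold higher on Pcgf6KO with a measured coding neighbour, 3 (20%) had a neighbour or overlapping coding gene that was also 2-fold higher, Rnf227 with Kcnab3 among them. Genes known only by a bound, such as Dlx4os, are not in this count. Over all 334 measured noncoding genes with such a neighbour the share was 8.08%. Of 13 lower noncoding genes 1 had a lower neighbour, Nphs1os with Nphs1, and 2 had a higher one. Over all 334 genes the share with a lower neighbour was 3.89%. The 2 with a higher neighbour were Speer5-ps1, beside Crybg1, which was higher by 2.37, and 6530411M01Rik, beside 1700010I14Rik, which was higher by 1.48.

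Promoter windows were available for 17 of the 25 genes higher on Pcgf6KO, bounds included, and for 13 of the 20 lower genes. The E2F motif was in 25.0% of 20 windows of the higher genes and in 35.7% of 14 windows of the lower ones. It was in 27.4% of the 288 windows of noncoding genes measured on any array and in 20% of all 32851 windows of the same length in the table. The E-box was in 5.00% and 14.3% of the higher and lower windows, in 8.68% of the measured noncoding windows and in 7.15% of all windows. Median GC content was 51.7% in the higher, 54.3% in the lower and 55.7% in the measured windows. With 1 to 5 windows behind each of these shares among the differing genes, the shares of the higher genes were near the background.

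Setting the Flag-labelled array against Pcgf6KO, 441 noncoding probes were measured on both, 51 reached 2-fold higher (11.6%) and 15 reached 2-fold lower (3.40%). Over all 32744 probes the background was 9.71% higher and 5.92% lower. All 16 probes above background on the Flag-labelled array alone of the pair had a bound past 2-fold (100%, where all probes gave 94.2%). Of 83 above background on Pcgf6KO alone of the pair, 15 did (18.1%, where all probes gave 19.8%). The lowest level called was -5.49 on the Flag-labelled array and -6.33 on Pcgf6KO. Where a probe's Pcgf6KO signal was below that, its bound in the higher direction started near 2-fold, so the directions cannot be compared by these shares. Most of the higher members were dim: among probes whose mean level reached the median of all measured probes 4 were higher and 3 lower. All probes of that brightness gave 670 higher and 693 lower. Of the brighter members other than predicted gene numbers, Vax2os and Rnu12, given above, had the largest differences, followed by 1700096K18Rik at -2.31, -2.95 and -1.13. Wbscr25 was at -2.31, -2.75 and -1.33. The dim pseudogene 4930515G16Rik was at -6.01 on Pcgf6KO and -2.97 on the third array, a difference of 3.04, and was not above background on the wildtype array.

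The large classes were counted in the same comparison, in which all probes gave 9.71% higher and 5.92% lower. Of 129 pseudogene probes measured on it and on Pcgf6KO 14 were 2-fold higher (10.9%) and 1 was lower (0.775%). Serpina3h, a pseudogene of the Serpina3 protease inhibitors, was at -2.91, -3.19 and -1.44. Of 39 testis clones 8 were higher (20.5%) and 3 lower (7.69%), and of 88 other clones 8 were higher (9.09%) and 7 lower (7.95%). Among clones, 4833422C13Rik was at -5.0, -4.91 and -2.93, so only the Flag-labelled array was high. 4933406I18Rik was above background on the Flag-labelled array only, at -4.94. Of 25 antisense probes 3 were higher (12%), near the share of all probes, and 0 lower: Vax2os, Arhgap33os and Plekhd1os, the last at -4.30, -4.52 and -3.42. Mexis was at -5.06, -5.93 and -3.95, lowest on Pcgf6KO and highest on the Flag-labelled array. The lowest signal called on the Flag-labelled array is higher, so probes dimmer than that there were not in these counts.

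Several transcripts at like levels on the first arrays were lower on the Flag-labelled array. 9930014A18Rik was at -0.55, -0.60 and -2.12 on its brighter probe and lower by 1.79 on the other. 1500009C09Rik was at -1.22, -1.28 and -2.74, and lower by 1.13 on its other probe. 5031434O11Rik was at -3.30, -3.35 and -5.02, and 0610040B10Rik at -1.83, -1.58 and -2.71. Trmt61b, at -0.76, -0.27 and -1.20, and Zfp783, at -1.12, -0.95 and -1.94, were lower by 0.93 and 0.99, short of the mark. A second, dim probe of Trmt61b was at -5.79, -5.69 and -4.85, higher by 0.84, so the probes of that gene disagreed. Dubr differed from these: at -3.04, -2.37 and -3.92, it was highest on Pcgf6KO and lowest on the third array. Among fibroblast markers 6 of the 9 with signal on both of these arrays reached 2-fold lower, with a median of -2.51, and their part in these differences was not tested.

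Against the wildtype array, the Flag-labelled array had 438 probes measured on both, 48 higher (11%) and 25 lower (5.71%), with a background of 8.63% and 3.98%. This comparison shares an array with each of the others. When arrays were scaled to their median signal the counts were 38 and 36, the largest shift of the split by any scaling, and the median over all probes moved from 0.03 to -0.09. Over all probes the counts moved from 2816 higher and 1299 lower to 2270 and 1711. Bounds past 2-fold came to 17 of 19 higher (89.5%, where all probes gave 85.5%) and 12 of 69 lower (17.4%, where all probes gave 15%). They were led by 4930515G16Rik, at least 9.49-fold higher, and U90926, at least 12.9-fold lower. The lowest level called was -5.49 on the Flag-labelled array and -6.22 on the wildtype array. Here too, bounds in the higher direction thus started nearer 2-fold, and the directions cannot be compared by these shares. Bmp1, a noncoding transcript of the gene for a procollagen-processing protease, was at -1.90, -2.84 and -3.51, lower by 1.61, and its probe may also read coding transcripts of the gene. AI662270 was at 1.76, 0.85 and 0.65, lower by 1.11. Both followed the order of the fibroblast markers, whose part was not tested. The probes of Fbxl12os disagreed: a dim probe, at -5.29, -4.79 and -4.23, was higher by 1.06, whereas a bright one was at 4.03, 3.88 and 4.09. Another Fbxl12os probe was above background on the wildtype array only.

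Several probes of 1 accession gave a check of single-probe values. Among 63 accessions with at least 2 probes measured on the wildtype and Pcgf6KO arrays, the median range of the differences was 0.20 and the largest 1.12. At least 1 probe passed 2-fold in 7 of these, and in all 7 the probes shared a sign. Every probe passed in 3. For the Flag-labelled array against Pcgf6KO the median range was 0.33 and the largest 2.24. There 8 of 10 accessions with a probe past 2-fold had all probes of 1 sign, and every probe passed in 3. Against wildtype the median range was 0.42 and the largest 3.25, with 11 of 13 such accessions of 1 sign and 3 with every probe past.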

How the data were processed

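RNA from 3 mouse ES cell samples was labelled with Cy3 by linear amplification and hybridised to single-colour Agilent arrays, 1 array per group, per the labels' protocols. The deposited scanner files hold a processed signal per spot, an intensity that Agilent Feature Extraction had already corrected for background, per the file headers. The version is 10.7 in the submitters' processing notes and 11.5.1.1 in the file headers. The deposited value table equals that intensity on a linear scale for 55249 of 55249 probes with a single spot (relative tolerance 1e-06). The calls used here, well above background, outlier and control type, are flags of other kinds that the authors deposited in the same files.

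Control spots and spots with an outlier flag (141, 158 and 192 on the wildtype, Pcgf6KO and Flag-labelled arrays) were left out, spots of a probe were averaged, and log2 of the intensity minus the 75th percentile of the array was taken. No spot was saturated. The SD of negative controls was 8.80, 9.09 and 16.9 intensity units. Accessions were matched without version to the RefSeq table of GRCm38.p6, which gave names only, since the array design uses another build. A 2-fold difference served as a fixed mark with no test. A probe well above background on 1 array of a pair was given a bound. Motifs and seeds were read from RefSeq sequence tables. Calculations used pandas 2.3.3 and numpy 2.4.6 under Python 3.11.15, limma 3.58.1 under R 4.3.3, and matplotlib 3.10.9 for plots, and the difference rule was tested on simulated data.

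Members and lists were chosen with earlier results of these data known. Of 170 symbols in the 6 lists of names, 61 had a probe. For each comparison, the brighter measured members with the 10 highest and 10 lowest differences were eligible to be named, with the 5 largest bounds each way, the 8 each way with Pcgf6KO furthest from the other arrays, the measured imprinted and X inactivation members, up to 4 members per other list, and up to 8 antisense transcripts with partners. Symbols made of Gm and a number were only counted, and those named were chosen after their values were seen, as were NR_002860, transcripts named to complete a count, coding neighbours, Fbxl12os and the well-known RNAs Malat1, Neat1, Terc, Rn28s1, Mir17hg, D7Ertd143e, Snhg1, Snhg3 and Snhg6. Alternatives were normexp background correction (limma, offset 50, on the median spot and background signals), quantile normalization, scaling to the median or to probes measured on all arrays, other filters on dim probes, the deposited value table, outlier spots kept, 1 probe per accession, and 1.5-fold and 3-fold marks.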

Additional observations from a re-analysis of the deposited data

How the results depend on the processing

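No paired analysis was possible because each group had a single array. For the same reason no replicate could be left out and no slide could be fitted as a block. No named difference past 2-fold changed sign in any alternative that gave a value, whereas 10 of all 210 named differences did, each of them 0.31 or smaller. Past 2-fold in every alternative that gave a value were 14 of 23 named differences of Pcgf6KO against wildtype, 20 of 32 of the Flag-labelled array against Pcgf6KO and 19 of 28 against wildtype. The deposited value table, kept outlier spots and scaling to probes measured on all arrays moved no count by over 1.5 times. The cause of the changes given next was not tested, except that the marks and filters change which probes are counted.

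Counts are given in the order higher and lower for Pcgf6KO against wildtype, for the Flag-labelled array against Pcgf6KO and for it against wildtype, then Pcgf6KO above and below both others. They were 21, 19, 51, 15, 48, 25, 6 and 3 as reported. With a 1.5-fold mark they were 50, 56, 93, 43, 85, 64, 14 and 15, and with a 3-fold mark 7, 5, 22, 4, 17, 9, 2 and 0. Among bright probes only they were 2, 10, 4, 3, 6, 10, 1 and 0, and with no filter on dim probes 67, 41, 158, 60, 136, 63, 27 and 10. Normexp gave 8, 14, 34, 8, 30, 17, 2 and 0. Scaling to the median raised the last count to 5. With 1 probe per accession the first 6 counts were 16, 15, 46, 10, 40 and 20.

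List medians moved most where few probes were measured. For Pcgf6KO against wildtype, the pluripotency list went from -0.33 to -1.30 with 1 probe per accession, 0.63 among bright probes, -0.85 with no filter and -0.18 with normexp. The X inactivation list went from -0.06 to -0.54 among bright probes, and the developmental list from -0.48 to -0.095 with no filter.

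For the Flag-labelled array against Pcgf6KO, 1 probe per accession gave -0.079 for X inactivation, 0.84 for pluripotency, 0.26 for structural RNAs and -0.31 for coding loci. Bright probes gave 0.19 for X inactivation, 0.18 for hosts, 0.18 for pluripotency, 0.22 for antisense and 0.021 for coding loci. No filter gave 0.18 for hosts, 0.83 for developmental, 0.57 for antisense, 0.66 for testis clones, 0.27 for other clones, 0.43 for pseudogenes, 0.059 for coding loci and 0.42 for all noncoding probes. Normexp gave 0.40 for developmental and 0.27 for antisense, and quantile normalization 0.40 for developmental.

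For that array against wildtype, 1 probe per accession gave 0.13 for pluripotency and -0.019 for coding loci. Bright probes gave -0.35 for X inactivation, 0.81 for pluripotency, -0.0084 for structural RNAs and -0.15 for other clones. No filter gave 0.13 for pluripotency, 0.74 for developmental, 0.65 for antisense, 0.74 for testis clones, 0.18 for other clones, 0.12 for small RNAs, 0.49 for pseudogenes and 0.40 for all noncoding probes. Normexp gave -0.49 for X inactivation and 0.42 for developmental. Quantile normalization gave -0.0015 for structural RNAs. Dim signal limits these results: 329 of 886 probes were not above background on any array.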
